A study of Caenorhabditis elegans with 16 samples.

Results

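The genes described here are the fatty acid elongation genes of *Caenorhabditis elegans*, *elo-1* to *elo-9* and *let-767*. They were chosen by name, as the probe sets that the array's annotation pairs with one of these symbols. They and the gene lists used below were chosen with earlier results of these data known. Their counts beside the shares of all genes are therefore a description. All 10 genes were found, each with 1 probe set, among 25498 genes tested and 29317 probe sets on the array. RNA from whole worms was measured on 16 Affymetrix arrays, 4 for each of 4 groups. The groups were *alfa-1(ok3062)* worms starved for 6 hr, well-fed *alfa-1(ok3062)* worms, N2 worms starved for 6 hr and well-fed N2 worms. N2 is the wild-type strain, and ok3062 is a deletion in *alfa-1*, the worm gene related to human C9orf72. The worms had been grown on OP50 bacteria, and starvation was in M9 buffer without bacteria. For the stage the labels have L3 and the methods L3/L4, and for the strains the labels have IW313 and IW314 and the methods RB2260 and N2. The labels describe fed worms kept in M9 with food for the same 6 hr, whereas the methods describe fed worms frozen at once. If the methods hold, starved worms also differ in buffer, room temperature, gentle mixing and 6 hr of further development. These cannot be told apart from food withdrawal in any comparison of starved with fed worms. In whole worms, fewer cells of a type and less RNA per cell cannot be told apart either. Whether the 4 arrays of a group stand for separate cultures is not stated, so the p-values cover only array-to-array spread that could be technical.

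Fatty acids are lengthened in the endoplasmic reticulum by a cycle that adds a pair of carbons taken from malonyl-CoA. An elongase of the ELO family makes the condensation that opens the cycle and sets which fatty acid is lengthened, and a ketoacyl-CoA reductase, a dehydratase and an enoyl-CoA reductase complete it. In worms the elongases work with the desaturases to build polyunsaturated fatty acids, and a separate pair, ELO-5 and ELO-6, builds monomethyl branched-chain fatty acids from a primer that comes from leucine. Worms need these branched-chain fatty acids to grow past the early larval stages.

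Levels are given as the deposited log2 value of each probe set, and the median of an array lay between 5.80 and 5.85. The *alfa-1* probe set was lower in the mutant on every array. It lay between 7.39 and 7.67 in starved *alfa-1(ok3062)* and between 9.23 and 9.59 in starved N2, and between 7.57 and 7.63 in fed *alfa-1(ok3062)* and between 9.11 and 9.39 in fed N2. The starved arrays were less alike than the fed ones: the median within-group SD over all genes was 0.168 in starved and 0.135 in fed *alfa-1(ok3062)*, and 0.171 in starved and 0.139 in fed N2. Array 3 of starved N2 had the lowest mean correlation with its group, at 0.985. The mean of 6 adult markers, *col-19* and 5 vitellogenin genes, lay between 10.6 and 11.3 over all arrays of these worms labelled L3. Of the 6, 2 were higher and 2 lower in starved than in fed *alfa-1(ok3062)*, and 3 were higher and 2 lower in N2. Those lower in both strains were *vit-1* (log2 fold change -1.84 in *alfa-1(ok3062)* and -1.31 in N2) and *vit-4* (-2.03 and -1.67), and *vit-2* and *vit-5* were higher in both.

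Elongation genes were lower in starved than in fed worms of both strains, 5 of 10 in *alfa-1(ok3062)* and 7 of 10 in N2, and none was higher. At an adjusted p under 0.05 from limma, 5 of the 10 were lower in starved than in fed *alfa-1(ok3062)* worms (*elo-4*, *elo-5*, *elo-6*, *elo-8* and *elo-9*), where 14.3% of all genes tested were lower. In N2, 7 of the 10 were lower in starved than in fed worms (the same 5, with *elo-2* and *let-767*), where 11.6% of all genes were lower. The count in N2 was 4 without array 1 of starved N2 and 2 by the methods' t-test after adjustment (*elo-4* and *elo-9*). None of the 10 was higher, where 10.9% of all genes were higher in *alfa-1(ok3062)* and 10.8% in N2, and in either direction 25.3% and 22.4% of all genes passed. The median log2 fold change of the 10 genes was -0.42 in *alfa-1(ok3062)* and -0.58 in N2, beside -0.016 and 0.0076 over all genes tested. All 10 fold changes were negative in both strains, although *elo-1*, *elo-3* and *elo-7* did not pass in either. The arrays of starved and fed worms did not overlap for 7 of the 10 genes in *alfa-1(ok3062)*, all lower (15.7% of all genes), and for 5 in N2 (12.2% of all genes).

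**Figure D1:**
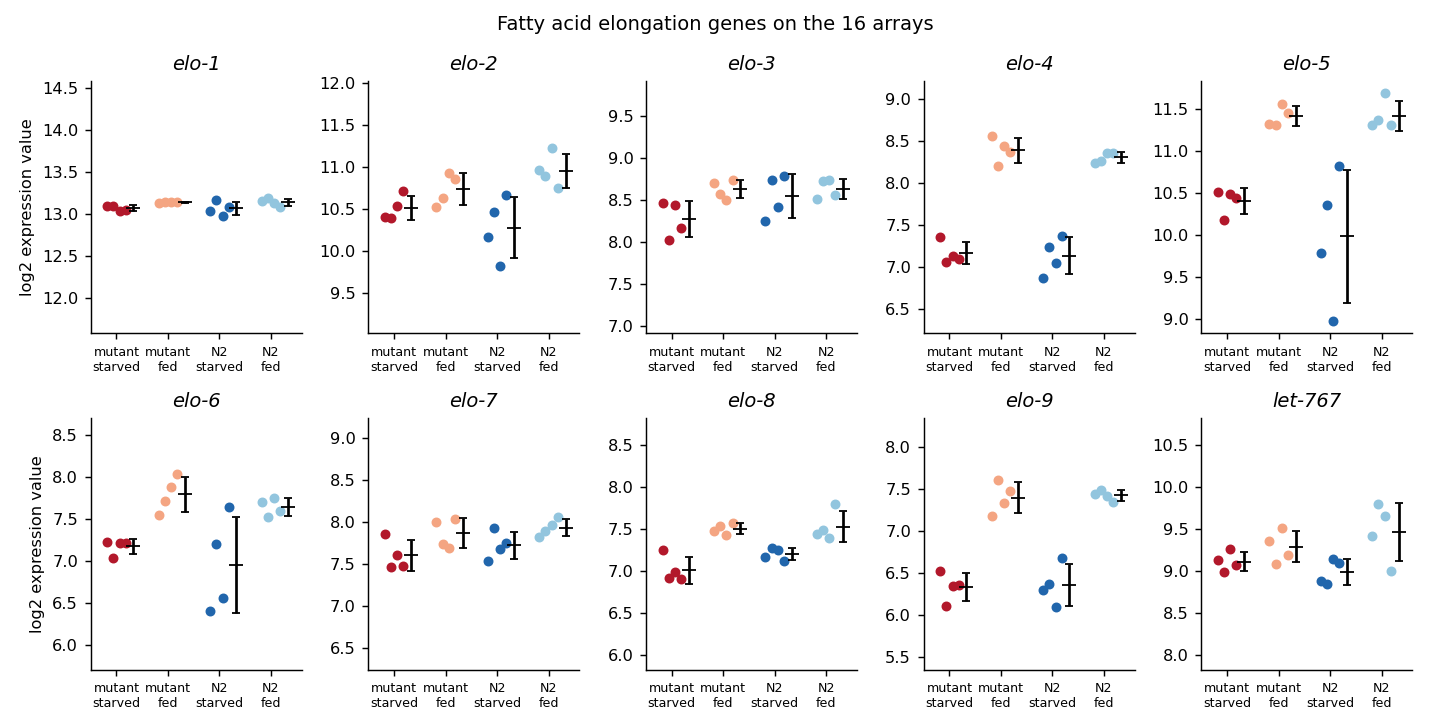
Log2 expression value (vertical axis, each panel spanning the same number of log2 units) of each fatty acid elongation gene on every array, in starved and fed *alfa-1(ok3062)* and starved and fed N2 worms. Points are arrays and bars are the mean ± SD (n = 4); for *elo-4* and *elo-9* all 8 starved arrays lie below all 8 fed arrays, while *elo-1* stays between 12.98 and 13.19 in all groups.

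The most reproducible decreases were those of *elo-4* and *elo-9*, genes placed in the elongase family by their sequence. The log2 value of *elo-4* was 7.36, 7.06, 7.14 and 7.10 in starved *alfa-1(ok3062)*, against 8.56, 8.20, 8.44 and 8.37 in fed *alfa-1(ok3062)*. In N2 the values were 6.87, 7.25, 7.05 and 7.37 in starved worms, against 8.24, 8.27, 8.36 and 8.36 in fed worms. Every starved array of either strain was thus below every fed array of either strain. The log2 fold change of *elo-4* was -1.23 in *alfa-1(ok3062)* (standard error 0.108, adjusted p = 2.58e-06 from limma), a level 2.34-fold lower. In N2 it was -1.17 (standard error 0.108, adjusted p = 5.16e-06 from limma), a level 2.25-fold lower. Ordered by mean, starved N2 (7.13 ± 0.219, SD, n = 4) and starved *alfa-1(ok3062)* (7.16 ± 0.131) were neighbours within their spread, as were fed N2 (8.31 ± 0.0626) and fed *alfa-1(ok3062)* (8.39 ± 0.149).

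For *elo-9* the log2 values were 6.51, 6.10, 6.34 and 6.36 in starved *alfa-1(ok3062)*, against 7.18, 7.60, 7.33 and 7.47 in fed *alfa-1(ok3062)*. In N2 they were 6.29, 6.36, 6.09 and 6.68 in starved worms, against 7.43, 7.49, 7.42 and 7.34 in fed worms. Again no starved array reached any fed array. Its level was 2.09-fold lower after starvation in either strain, with an adjusted p of 2.69e-05 in *alfa-1(ok3062)* and 2.75e-05 in N2 (limma). Both genes passed under all 28 alternative limma settings in either strain, with adjusted p of at most 0.000659 for *elo-4* and 0.00105 for *elo-9*.

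The elongases of branched-chain fatty acids, *elo-5* and *elo-6*, were also lower in starved worms of both strains. The log2 value of *elo-5* was 10.50, 10.17, 10.48 and 10.43 in starved *alfa-1(ok3062)*, against 11.32, 11.31, 11.56 and 11.45 in fed *alfa-1(ok3062)*. In N2 it was 9.78, 10.36, 8.97 and 10.81 in starved worms, against 11.30, 11.36, 11.68 and 11.31 in fed worms. Starved and fed arrays did not overlap in either strain, but starved N2 was far more spread (SD 0.793) than starved *alfa-1(ok3062)* (SD 0.153), with array 3 lowest and array 4 highest. The level of *elo-5* was 2.02-fold lower in starved than in fed *alfa-1(ok3062)* (log2 fold change -1.01, standard error 0.264, adjusted p = 0.0106 from limma). In N2 it was 2.70-fold lower (log2 fold change -1.43, standard error 0.264, adjusted p = 0.00115 from limma). This standard error pools the spread of all 4 groups, so it does not show the wider spread of starved N2. The unpaired test named in the methods uses only the arrays compared. By that test the adjusted p of *elo-5* was 0.0741 in N2, which did not pass, and 0.00259 in *alfa-1(ok3062)*. With limma on the 8 N2 arrays alone it passed (adjusted p = 0.0189). Without arrays 1 and 3 of starved N2, left out together after their values were seen, the log2 fold change in N2 was -0.83 (adjusted p = 0.00214 from limma). These are the lowest starved N2 arrays for *elo-5*, so leaving them out could only make the decrease smaller, as for the other genes low on them.

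The log2 value of *elo-6* was 7.23, 7.04, 7.22 and 7.22 in starved *alfa-1(ok3062)*, against 7.55, 7.72, 7.89 and 8.04 in fed *alfa-1(ok3062)*, without overlap. The N2 values were 6.41, 7.20, 6.57 and 7.65 in starved worms, against 7.71, 7.52, 7.76 and 7.60 in fed worms. Arrays 1 and 3 of starved N2 were low, while array 4 lay within the range of the fed arrays. The log2 fold change was -0.62 in *alfa-1(ok3062)* (adjusted p = 0.0337 from limma) and -0.69 in N2 (adjusted p = 0.0211 from limma). Without arrays 1 and 3 of starved N2 it was -0.22 in N2 and did not pass (adjusted p = 0.347 from limma). The call in N2 was also lost without fed array 3, starved array 1 or starved array 3 singly (adjusted p of 0.0567, 0.0686 and 0.0682 from limma). In *alfa-1(ok3062)* it was lost without fed array 2, 3 or 4 or starved array 2, 3 or 4 (adjusted p between 0.0535 and 0.0974 from limma). It was also lost there under quantile and cyclic loess normalization (adjusted p = 0.0671 and 0.0871 from limma). With limma on the 8 N2 arrays alone *elo-6* did not pass (adjusted p = 0.0812). By the methods' t-test its adjusted p was 0.178 in N2, which did not pass, and 0.0169 in *alfa-1(ok3062)*. On chromosome IV in the assembly WBcel235, 3 protein-coding genes lie between *elo-5* and *elo-6*. The probe sequences were not used here, and whether the probes of one elongase also bind RNA of a close relative was not tested.

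The gene *elo-8* fell less, and in both strains. Its log2 value was 7.24, 6.91, 6.98 and 6.90 in starved *alfa-1(ok3062)*, against 7.47, 7.53, 7.43 and 7.57 in fed *alfa-1(ok3062)*. The N2 values were 7.17, 7.27, 7.24 and 7.12 in starved worms, against 7.44, 7.48, 7.39 and 7.80 in fed worms. No starved array reached a fed array of its own strain. The log2 fold change was -0.49 in *alfa-1(ok3062)* (adjusted p = 0.00185 from limma) and -0.33 in N2 (adjusted p = 0.0236 from limma). The N2 call was lost without fed array 4, starved array 1 or starved array 4 (adjusted p of 0.0771, 0.0527 and 0.0569 from limma).

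In N2 but not in *alfa-1(ok3062)*, *elo-2*, whose product lengthens palmitic acid, and *let-767*, which encodes the ketoacyl-CoA reductase of the cycle, passed the test. The log2 value of *elo-2* was 10.42, 10.40, 10.54 and 10.72 in starved *alfa-1(ok3062)*, against 10.53, 10.64, 10.94 and 10.86 in fed *alfa-1(ok3062)*. Among N2 arrays it was 10.17, 10.47, 9.83 and 10.68 in starved worms, against 10.96, 10.90, 11.23 and 10.75 in fed worms. The arrays overlapped in *alfa-1(ok3062)* and not in N2, where array 3 was again the lowest of the starved arrays. Its log2 fold change was -0.22 in *alfa-1(ok3062)* (95% interval -0.56 to 0.11, adjusted p = 0.337 from limma) and -0.68 in N2 (standard error 0.158, adjusted p = 0.00613 from limma). The *let-767* values overlapped between starved and fed arrays in both strains. They averaged 9.12 ± 0.113 in starved and 9.29 ± 0.184 in fed *alfa-1(ok3062)*, and 8.99 ± 0.152 in starved and 9.47 ± 0.345 in fed N2 (SD, n = 4 each). Its log2 fold change was -0.17 in *alfa-1(ok3062)* (95% interval -0.48 to 0.13) and -0.47 in N2 (adjusted p = 0.0271 from limma). That call was lost without array 2 or 3 of fed N2 or array 1 or 2 of starved N2 (adjusted p between 0.0686 and 0.0955 from limma). Without arrays 1 and 3 of starved N2 together, *elo-2* had a log2 fold change of -0.39 in N2 and did not pass (adjusted p = 0.0947 from limma). The difference between the strains in these responses was itself tested and did not pass, with an adjusted p of 0.735 for *elo-2* and 0.75 for *let-767* (limma).

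The remaining genes did not pass by limma in either strain. *elo-1*, whose product lengthens polyunsaturated fatty acids, averaged 13.08 ± 0.0320 in starved and 13.14 ± 0.00657 in fed *alfa-1(ok3062)*, and 13.07 ± 0.0792 in starved and 13.14 ± 0.0457 in fed N2 (SD, n = 4 each). Its log2 fold change was -0.07 in either strain, with a 95% interval of -0.20 to 0.07 in *alfa-1(ok3062)* and of -0.20 to 0.06 in N2. The starved and fed arrays did not overlap in *alfa-1(ok3062)*, where *elo-1* passed the methods' t-test after adjustment (adjusted p = 0.0393) and not limma (adjusted p = 0.476). These values are near the top of the deposited scale, whose maximum was 14.2, and the response of the probes at this level was not tested. The neighbouring gene *elo-7*, with no protein-coding gene between it and *elo-1* in WBcel235, had a log2 fold change of -0.26 in *alfa-1(ok3062)* and -0.21 in N2 (adjusted p = 0.103 and 0.208 from limma). It passed in *alfa-1(ok3062)* without array 1 of the starved mutant (adjusted p = 0.0315 from limma). That of *elo-3* was -0.35 in *alfa-1(ok3062)*, where the starved and fed arrays did not overlap (adjusted p = 0.0523 from limma), and -0.09 in N2 (adjusted p = 0.690). In *alfa-1(ok3062)* *elo-3* passed in 10 of 28 alternative settings, among them those without array 1 or 3 of the starved mutant (adjusted p = 0.0336 and 0.0445) or array 1 or 4 of starved N2 (adjusted p = 0.0331 and 0.0435 from limma). In N2 it passed in none of 28.

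**Figure D2:**
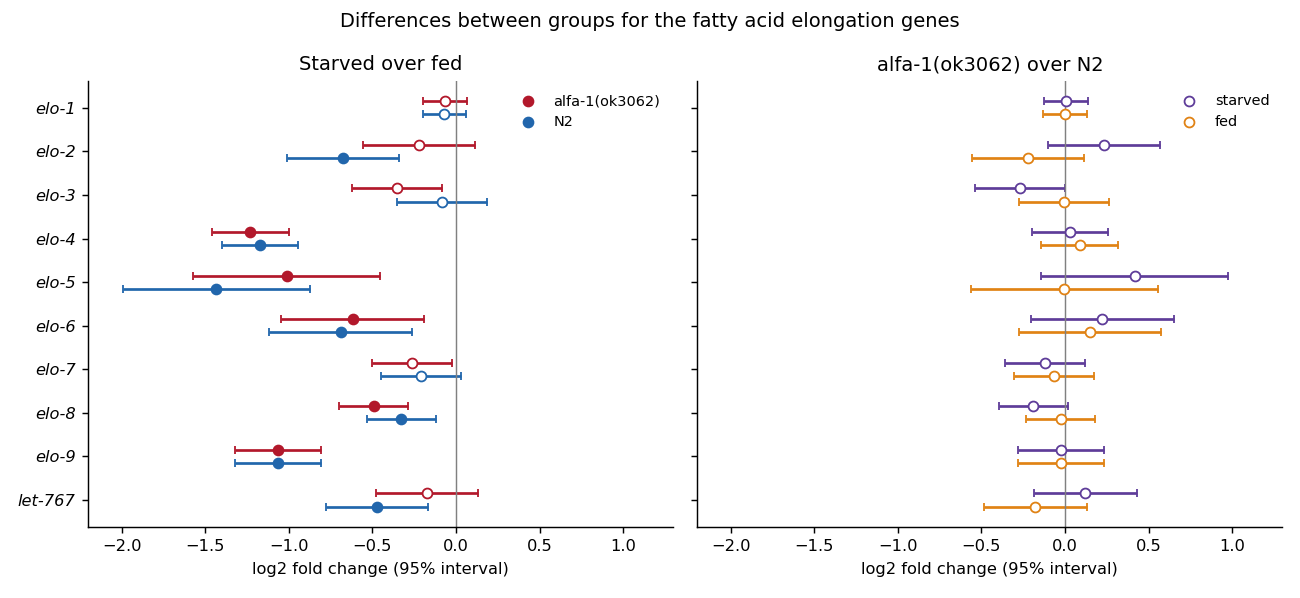
Log2 fold change (horizontal axes) of each gene between starved and fed worms of each strain (left) and between *alfa-1(ok3062)* and N2 in starved and in fed worms (right). Bars are 95% intervals and filled points passed at an adjusted p under 0.05 from limma; *elo-4* and *elo-9* show nearly equal decreases in both strains, and no gene passed between the strains.

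None of the 10 genes differed between the strains by limma. In starved *alfa-1(ok3062)* relative to starved N2, 0 of 10 passed, where 0.0941% of all genes did, and 1 had an unadjusted p under 0.05. That gene was *elo-3*, with a log2 fold change of -0.27 (95% interval -0.54 to -0.00, adjusted p = 0.408 from limma). In fed *alfa-1(ok3062)* relative to fed N2, 0 of 10 passed, where 0.0902% of all genes did, and 0 had an unadjusted p under 0.05. The methods' t-test gave 0 of 10 in either condition, adjusted or not. The arrays of the strains overlapped for all 10 genes in starved and in fed worms, where 4.24% and 4.26% of all genes had no overlap. With so few of all genes passing, a count of 0 among 10 says little, and the intervals bound the difference instead. For *elo-4* the 95% interval in starved worms was -0.20 to 0.26, and for *elo-9* -0.28 to 0.23. For *elo-5* it was -0.14 to 0.98 around a log2 fold change of 0.42, the widest of the 10 genes. That fold change was 0.08 without array 3 of starved N2 and 0.69 without array 4.

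The response to starvation was also compared between the strains, as an interaction. By limma 0 of 10 passed, as did 0% of all 25498 genes, and 0 of the 10 had an unadjusted p under 0.05. The difference of responses, *alfa-1(ok3062)* less N2, was 0.00 for *elo-9* (95% interval -0.37 to 0.37) and -0.06 for *elo-4* (-0.38 to 0.27). It was 0.42 for *elo-5* (-0.37 to 1.21) and 0.45 for *elo-2* (-0.02 to 0.93). With 1 array left out at a time, the difference for *elo-5* lay between 0.09 and 0.70.

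Genes of the larval molt were also lower in starved worms. Of 9 molting genes, 3 were lower by limma in starved than in fed *alfa-1(ok3062)* and 9 in N2. Their median log2 fold changes were -0.51 and -1.10. Of all genes tested, 14.3% were lower in *alfa-1(ok3062)* and 11.6% in N2. Limma pools the spread of all groups, and starved N2 was the most spread for these genes. By the methods' t-test after adjustment, *mlt-8*, *mlt-10*, *nas-36*, *nas-37* and *qua-1* passed in *alfa-1(ok3062)* (adjusted p at most 0.0391). None passed in N2 by that test (lowest adjusted p 0.0673, for *nas-37*). Of all 25498 genes, 4932 passed that test in *alfa-1(ok3062)* and 3042 in N2, in either direction. The mean log2 value of the 9 genes lay between 9.91 and 10.2 in starved and between 10.6 and 10.8 in fed *alfa-1(ok3062)*. In N2 it lay between 8.60 and 10.1 in starved and between 10.4 and 10.7 in fed worms, and arrays 3 and 1 of starved N2 were the lowest. These are also the starved N2 arrays with the lowest values of 8 of the 10 elongation genes, all but *elo-8* and *let-767*. Over the starved arrays of both strains *elo-5* ranged between 8.97 and 10.81, *elo-4* between 6.87 and 7.37 and *elo-9* between 6.09 and 6.68. Over the 8 starved arrays, which differ in strain and share their processing, the Pearson correlation with the molting mean was 0.922 for *elo-5*, 0.917 for *elo-2* and 0.775 for *elo-6*. It was 0.714 for *elo-1*, which passed in neither strain by limma, 0.502 for *elo-9* and 0.484 for *elo-4*. For *elo-3*, *elo-7*, *let-767* and *elo-8* it was 0.026, -0.00048, -0.085 and -0.504. These correlations pool the strains, and starved N2 had the wider spread of the molting mean. Among the starved *alfa-1(ok3062)* arrays the order differed. Array 2 had the highest molting mean (10.23) and the lowest values of *elo-5* (10.17), *elo-6* (7.04) and *elo-2* (10.40). Array 3 had the lowest molting mean (9.91), with *elo-5* at 10.48. Correlations within each strain were not computed. By limma the hypodermis markers were lower in 1 of 5 genes in starved *alfa-1(ok3062)* and in 3 of 5 in starved N2, and the intestine markers in 3 of 5 and 2 of 5. The order of the strains for the hypodermis markers depended on this pooled spread. For *dpy-7*, *rol-6* and *bli-1* the starved and fed arrays did not overlap in *alfa-1(ok3062)*. In N2 they overlapped for *dpy-7* and *bli-1*. By the unpaired test named in the methods, after adjustment, these genes all passed in *alfa-1(ok3062)* and only *rol-6* passed in N2. The part of molting stage or tissue content in the elongase values was not tested.

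**Figure D3:**
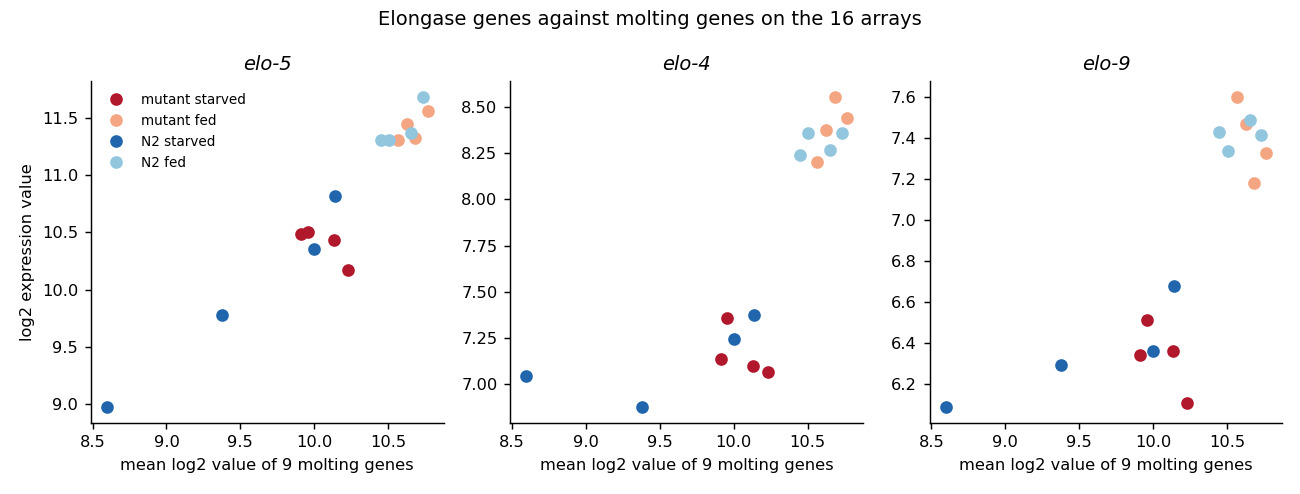
Log2 expression value of *elo-5*, *elo-4* and *elo-9* (vertical axes) against the mean log2 value of 9 molting genes (horizontal axes) on each of the 16 arrays, coloured by group. The lowest *elo-5* value, 8.97, is on the array with the lowest molting mean, 8.60, while *elo-4* and *elo-9* separate starved from fed arrays, with starved *elo-4* between 6.87 and 7.37.

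The enzymes around the elongases changed in different directions. Of 8 genes that supply or use branched-chain fatty acids, 5 were lower and 0 higher in starved worms of either strain. Of all genes tested, 14.3% were lower and 10.9% higher in *alfa-1(ok3062)*, and 11.6% and 10.8% in N2. *acs-1*, an acyl-CoA synthetase gene that acts with *elo-5* in this pathway, had log2 values of 9.93, 9.85, 9.90 and 10.15 in starved *alfa-1(ok3062)*, against 10.46, 10.38, 10.60 and 10.66 in fed *alfa-1(ok3062)*. In N2 it had 9.91, 10.16, 9.74 and 10.33 in starved worms, against 10.56, 10.75, 10.81 and 10.47 in fed worms. The arrays did not overlap in either strain, and *acs-1* fell by 0.56 on the log2 scale in *alfa-1(ok3062)* (adjusted p = 0.00354 from limma) and by 0.61 in N2 (adjusted p = 0.00217). The others that fell in both strains were *bckd-1A*, *bckd-1B* and *dbt-1*, for subunits of the branched-chain ketoacid dehydrogenase that makes the leucine-derived primer, and *sptl-1*, for the serine palmitoyltransferase of sphingolipid synthesis. Their log2 fold changes lay between -0.52 and -0.26. The medians of the 8 genes were -0.26 in *alfa-1(ok3062)* and -0.29 in N2.

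Of the other enzymes of the elongation cycle, the enoyl-CoA reductase gene *art-1* fell by 0.27 on the log2 scale in both strains (adjusted p = 0.0239 in *alfa-1(ok3062)* and 0.0275 in N2 from limma). The dehydratase gene *hpo-8* did not pass. Of 5 genes listed under fatty acid synthesis, 1 rose and 1 fell in starved *alfa-1(ok3062)*, and 2 rose and 1 fell in starved N2. The 1 that fell in *alfa-1(ok3062)* was the malonyl-CoA decarboxylase gene *mlcd-1* (log2 fold change -0.28, adjusted p = 0.0146 from limma). In N2 it was *fasn-1*. In either direction, 25.3% of all genes tested passed in *alfa-1(ok3062)* and 22.4% in N2. The gene *pod-2*, for the acetyl-CoA carboxylase that makes malonyl-CoA, rose by 0.26 and 0.28 on the log2 scale in *alfa-1(ok3062)* and N2. The fatty acid synthase gene *fasn-1* had a log2 fold change of -0.19 in *alfa-1(ok3062)* (adjusted p = 0.234 from limma) and -0.52 in N2 (adjusted p = 0.00336 from limma).

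Of 7 desaturase genes, 2 rose and 1 fell in starved *alfa-1(ok3062)*, and 1 rose and 1 fell in starved N2. Among all genes tested, 25.3% passed in either direction in *alfa-1(ok3062)* and 22.4% in N2. The palmitoyl-CoA desaturase gene *fat-5* rose by 1.98 on the log2 scale in *alfa-1(ok3062)* (adjusted p = 0.0014 from limma) and by 1.15 in N2 (adjusted p = 0.0383). Its fed values were low, between 5.21 and 5.65 in *alfa-1(ok3062)* and between 5.02 and 5.19 in N2, below the median of every array. The other that rose in *alfa-1(ok3062)* was *fat-6*, by 0.60 (adjusted p = 0.0127 from limma). In N2 *fat-6* had a log2 fold change of 0.03 (adjusted p = 0.920 from limma). The stearoyl-CoA desaturase gene *fat-7* fell by 1.47 in *alfa-1(ok3062)* (adjusted p = 0.00347 from limma) and by 1.52 in N2 (adjusted p = 0.00291). In starved *alfa-1(ok3062)* the mean log2 value was 7.72 for *fat-7* and 10.58 for *fat-6*. By the methods' t-test neither *fat-5* nor *fat-7* passed in N2 (adjusted p = 0.116 and 0.102). The desaturases of polyunsaturated fatty acids, *fat-1* to *fat-4*, did not pass in either strain. Beside the same shares of all genes, 3 of 11 lipid regulators rose and 1 fell in starved *alfa-1(ok3062)*. In starved N2, 2 rose and 1 fell. Those that rose were *sbp-1*, the worm SREBP gene, *scp-1*, its SCAP partner, and *hlh-30* in *alfa-1(ok3062)*, and *scp-1* and the Mediator subunit gene *mdt-15* in N2, by at most 0.37 on the log2 scale. Those that fell were the nuclear receptor gene *nhr-13* in *alfa-1(ok3062)* (log2 fold change -0.32, adjusted p = 0.0058 from limma) and the transcription factor gene *mxl-3* in N2 (log2 fold change -1.44, adjusted p = 0.00479 from limma). Regulators called in only 1 strain moved the same way in the other. In N2 these were *nhr-13* (-0.21), *sbp-1* (0.28) and *hlh-30* (0.15), with adjusted p of 0.0560, 0.0739 and 0.172 from limma. In *alfa-1(ok3062)* these were *mxl-3* (-0.84) and *mdt-15* (0.17), with adjusted p of 0.0718 and 0.116 from limma. No gene of these lists passed between the strains or in the interaction, and no list was tested as a set.

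**Figure D4:**
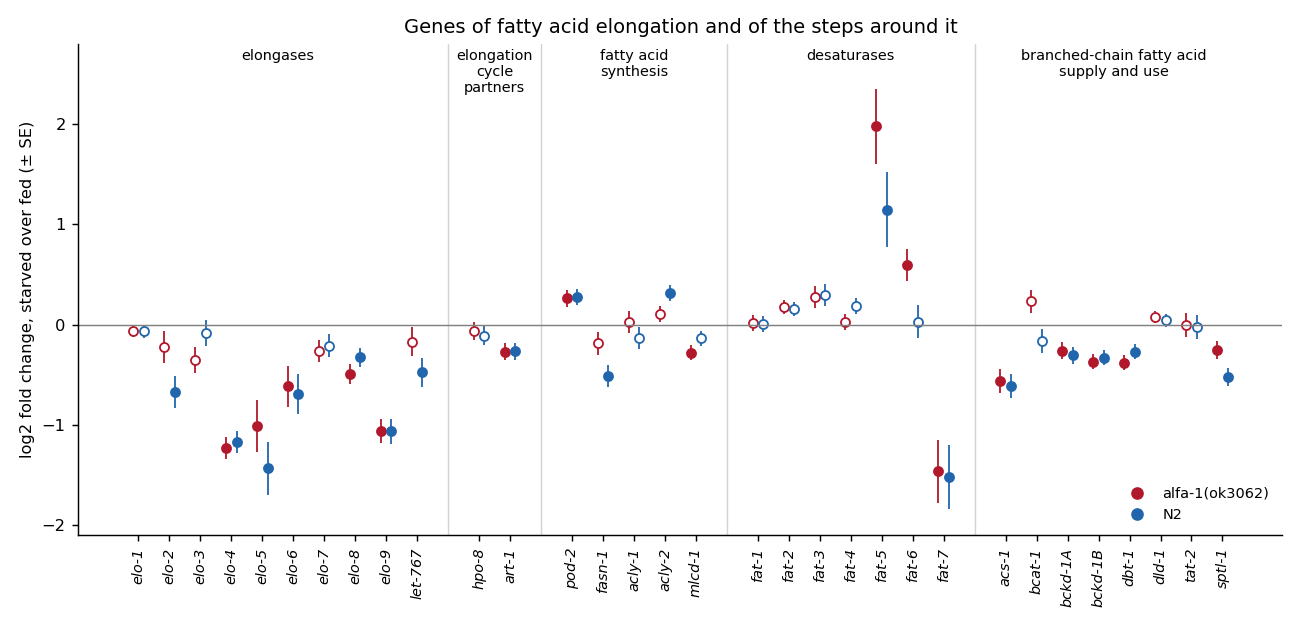
Log2 fold change between starved and fed worms of each strain (vertical axis) for the elongation genes and the enzymes around them, grouped by list. Bars are ± 1 standard error and filled points passed at an adjusted p under 0.05 from limma; *acs-1* lies at -0.56 in *alfa-1(ok3062)* and -0.61 in N2, while *fat-5* and *fat-7* lie far out on opposite sides.

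Of the 45 pairs of the 10 genes, 45 had a positive Pearson correlation over the 16 arrays that include the difference between fed and starved worms, between 0.296 and 0.952. After the group means were taken off, 39 were positive, and the range was -0.535 (*elo-8* and *let-767*) to 0.876 (*elo-2* and *elo-5*). Values for other gene pairs were not computed. The pair *elo-4* and *elo-9*, the highest over all arrays at 0.952, was at 0.265 within groups, and *elo-5* and *elo-6* were at 0.926 over all arrays and 0.825 within groups. The genes most like *elo-4* over the 16 arrays, which include the difference between fed and starved worms, were *cpg-9* (r = 0.992), *T11G6.4* (r = 0.991) and *pcp-2* (r = 0.988). Those most like *elo-5* were *tni-1* (r = 0.984), *F49C5.11* (r = 0.984) and *T12E12.6* (r = 0.981).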

How the data were processed

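Whole-worm RNA of 16 samples was labelled with biotin and hybridised to Affymetrix arrays. The authors deposited 1 log2 expression value for each probe set and array. Their processing notes list RMA and Partek, without versions. RMA normalizes arrays to each other, so a shift shared by most genes would have been removed. Values ran from 1.84 to 14.2. Signal over background could not be given, so precision rests on the number of arrays.

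Of 29317 probe sets, the platform table paired 25546 with 1 gene and 646 with several, and did not list 3125. By gene identifier 25495 matched RefSeq (WBcel235), with 0 symbols changed. For 37 genes with several probe sets the one with the highest mean was used, leaving 25498 genes. Limma 3.58.1 in R 4.3.3 estimated 4 group means from the 16 arrays together, with 12 residual degrees of freedom. Benjamini-Hochberg adjustment ran over all genes, and the threshold was an adjusted p of 0.05. The fit was tested on simulated data. Tables and figures were made with pandas 2.3.3, numpy 2.4.6, matplotlib 3.10.9 and Python 3.11.15. The methods name an unpaired t-test in general, which was run as an alternative. Other alternatives were each array left out, a replicate block, the 8 arrays of a comparison alone, further normalizations, array weights, other priors, a filter on dim genes, all probe sets and a fold of at least 1.5. Named genes are the 10 members, *alfa-1*, genes of listed pathways and stage or tissue markers, and the 3 genes most correlated with each of the 2 members of widest range. The members and lists were chosen with earlier results of these data known. Every sample was used, and 0 columns were left without a sample. No sequence is shown, since none was used here.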

Additional observations from a re-analysis of the deposited data

Results flagged for a closer look

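Of 40 sets of 4 arrays (10 genes in 4 groups), 2 held an array far from the others, and chance gives about 1 in 20. The *elo-5* value on array 3 of fed N2 was 11.68, with the nearest other array at 11.36 and a gap of 0.845 of the whole range. The *elo-6* value on array 2 of starved *alfa-1(ok3062)* was 7.04, with the nearest other array at 7.22 and a gap of 0.967 of the range.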

How the results depend on the processing

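Of 1520 values of single genes under an alternative, 1469 kept their side of the threshold. Another 36 lost the call, 15 gained it and 0 called values reversed. Among those that kept their side, 74 uncalled values changed sign. The 1520 include the strain comparisons and the interaction, where 0 of 10 genes were called with all arrays, so no call could be lost there. In N2 the 7 lower genes became 4 with the 8 arrays of the comparison alone, 2 by the methods' t-test after adjustment (*elo-4* and *elo-9*) and 3 without arrays 1 and 3 of starved N2 (*elo-4*, *elo-5* and *elo-9*). In *alfa-1(ok3062)* the 5 lower genes became 6 with the 8 arrays alone and 6 by the adjusted t-test. With each array left out in turn the count was 4 to 7 in N2, the lowest without N2 starved replicate 1, and 4 to 7 in *alfa-1(ok3062)*, beside 5 with all arrays. The cause was not tested. Calls of *elo-6* (22 of 28 limma settings in N2, 19 in *alfa-1(ok3062)*), *let-767* (22 in N2) and *elo-8* (23 in N2) were the least stable. Samples with the same replicate number showed little likeness, with correlations of their deviations from -0.472 to 0.149 over all comparisons. Between starved and fed worms of the same strain they lay between -0.141 and 0.112. The methods describe collected worms divided equally into tubes, so fed and starved samples may share a pool. Whether the numbers mark such pairs is not stated, and these correlations cannot settle it. With the replicate block 7 genes were lower in N2 and 5 in *alfa-1(ok3062)*. Counts between the strains were 0 of 10 under all 31 alternatives, and interaction counts under the 28 run for it, which leave out the 8 arrays alone and the t-tests. Over all genes, those passing numbered 2232 to 7661 in N2 starvation (5707 as reported), 2738 to 8814 in *alfa-1(ok3062)* starvation (6440), 6 to 1794 between fed strains (23) and 3 to 1762 between starved strains (24), the highest being unadjusted t-tests. The number of arrays limits small differences.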
